A study of Mus musculus with 8 samples.

Results

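The genes described here make, hold in check and read out retinoic acid: Aldh1a1, Aldh1a2 and Aldh1a3 (retinaldehyde dehydrogenases), Rdh10 and Dhrs3 (the pair that interconverts retinol and retinaldehyde), Stra6 (a retinol carrier of the cell membrane), and Rara, Rarb and Rarg (the nuclear receptors). They are 9 of the 25240 gene symbols in the deposited count table, and all 9 were found and tested. The members were picked by symbol, and they were chosen by a reading of the same Tomato-positive against Tomato-negative difference that is shown here, within identifier pairs and within title prefixes. Their values in that contrast are therefore a description and carry no p-value. The libraries were 4 of Tomato-positive and 4 of Tomato-negative kidney cells. Every one came from mice of the genotype p16-tdTomato that had been given chronic kidney disease by feeding adenine, and no library of healthy mice is part of the comparison. The labels give the cells as epithelium of the proximal tubule and give neither age nor sex, nor the number of animals or whether any were pooled. They also do not say how the reporter was built or how cells were gated.

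Retinoic acid is made from vitamin A by a pair of oxidations. Retinol enters from the blood, where a binding protein carries it, and is oxidised to retinaldehyde, a reversible step in which RDH10 works forward and DHRS3 backward. The ALDH1A enzymes then oxidise retinaldehyde to retinoic acid, which cannot be turned back and is cleared by the CYP26 hydroxylases. In the nucleus the receptors RARα, RARβ and RARγ bind response elements in DNA together with an RXR partner, hold genes down with corepressors when empty and switch them on when loaded. In the developing kidney this signal keeps the ureteric bud growing and branching through the Ret receptor gene, and in the injured adult kidney of mice it has been described as returning in tubules and macrophages.

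Of the 9 genes, 7 had entries in the RefSeq promoter table (GRCm38.p6), with 17 windows in all, each reaching from 250 bases before to 50 after an annotated start. The classic response element of the receptors, a direct repeat with a spacer named DR5, was looked for on both strands. It stood in 32 of 32544 windows (0.0983%). Among the 7 genes with windows, Rarb alone had it, and among the other listed retinoid genes Cyp26a1 alone. Aldh1a3 and Rdh10 had no entry and were not searched. The shorter-spaced DR2 element stood in 0.270% of windows and in none of the members' windows. The windows of Rarb and Cyp26a1 are printed because they are the textbook readouts of receptor activity, with the DR5 match in capitals. The match begins 53 bases before the start of Rarb, on the gene's own strand, and 32 bases before the start of Cyp26a1, on the opposite strand.
Rarb, chr14:16575427-16575726, minus strand: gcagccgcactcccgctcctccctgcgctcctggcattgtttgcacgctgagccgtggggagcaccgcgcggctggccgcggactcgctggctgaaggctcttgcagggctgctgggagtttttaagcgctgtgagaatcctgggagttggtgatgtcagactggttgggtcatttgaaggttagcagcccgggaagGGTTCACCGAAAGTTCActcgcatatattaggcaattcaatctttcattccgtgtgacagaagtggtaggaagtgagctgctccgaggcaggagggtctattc
Cyp26a1, chr19:37697558-37697857, plus strand: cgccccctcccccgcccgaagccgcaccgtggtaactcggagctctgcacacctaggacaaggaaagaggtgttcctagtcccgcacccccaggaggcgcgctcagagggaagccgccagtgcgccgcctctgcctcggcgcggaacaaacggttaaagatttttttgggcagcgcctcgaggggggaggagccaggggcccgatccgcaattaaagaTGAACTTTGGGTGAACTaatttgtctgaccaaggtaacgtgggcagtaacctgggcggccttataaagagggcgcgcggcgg
A match is a run of letters and does not show that a receptor sits there.

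Library totals ranged from 13474439 to 19886202 counts, and the lowest count of any of the 9 genes in any library was 86. Levels are given as CPM, counts scaled to a common library total. The tdTomato transgene stood at 3167 to 4143 CPM in Tomato-positive and 79.5 to 159 CPM in Tomato-negative libraries. The titles pair the libraries by identifier (CKD523_2, CKD523_3, CKD627_1 and CKD627_2), and values below follow that order. Proximal tubule markers were present in all libraries (Lrp2 averaged 611 CPM in Tomato-positive and 828 CPM in Tomato-negative cells), but so were markers of other nephron segments, and their levels are given beside the results they move with. In bulk RNA, a change in the share of a cell type and a change of RNA per cell cannot be told apart.

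Aldh1a3 showed the widest gap of the 9 genes. This enzyme makes retinoic acid in eye, nose and ureteric epithelium of the mouse embryo and lies on chromosome 7 of mm10 (66390890 to 66427517, minus strand). It was at 436, 584, 143 and 62.2 CPM in the Tomato-positive libraries, against 68.7, 29.5, 13.4 and 15.1 CPM in the Tomato-negative ones. Every positive library was above its own partner, while the lowest positive library (CKD627_2) lay just under the highest negative one (CKD523_2), so that the groups overlapped. The means were 306 ± 245 CPM in Tomato-positive and 31.7 ± 25.7 CPM in Tomato-negative cells (SD, n = 4 each), so the spread within each group was nearly as wide as its mean. Within pairs the ratio of positive to negative was 6.34, 19.8, 10.7 and 4.13. The edgeR fit with the identifier as a block, called the paired fit here, put the difference at 8.41-fold, with 95% bounds of 5.06 and 14.0. Such bounds of the members, here and below, do not allow for the choice of the genes by this contrast. They are a description and not a test.

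Aldh1a1, the most widespread of the dehydrogenases in adult epithelia (chromosome 19, 20492715 to 20643465, plus strand), was also higher. It was at 95.4, 73.7, 55.2 and 45.1 CPM in Tomato-positive, against 36.0, 21.2, 17.9 and 14.6 CPM in Tomato-negative libraries. The groups did not overlap, and the pairs were close to each other, with ratios of 2.65, 3.47, 3.08 and 3.09. The means were 67.3 ± 22.1 CPM in Tomato-positive and 22.4 ± 9.46 CPM in Tomato-negative cells (SD, n = 4 each). The paired fit gave 2.98-fold, with bounds of 2.38 and 3.71. Aldh1a7, a close copy of Aldh1a1 in the mouse, averaged 10.1 ± 3.58 CPM in Tomato-positive and 16.7 ± 10.3 CPM in Tomato-negative cells (SD, n = 4 each) and lay in the other direction (paired log2 -0.62 ± 0.25 SE). The sources used here do not say how reads shared by these copies were counted.

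Aldh1a2, the main dehydrogenase of embryonic mesoderm and of the mesothelium (chromosome 9, 71215789 to 71296243, plus strand), went 2 ways. It was at 17.2, 17.0, 6.43 and 9.71 CPM in Tomato-positive, against 9.33, 9.94, 16.7 and 13.2 CPM in Tomato-negative libraries. Both CKD523 pairs were higher in positive cells and both CKD627 pairs lower, and the groups overlapped. The paired estimate was 0.955-fold, with bounds of 0.532 and 1.71.

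Per length of exon, the 3 dehydrogenases together came to 121, 149, 45.0 and 26.9 CPM per kb in the Tomato-positive libraries, against 26.3, 15.1, 13.9 and 12.1 CPM per kb in the Tomato-negative ones. Aldh1a3 made up between 50.1 and 84.9% of that sum in positive and between 20.9 and 56.6% in negative libraries. In both CKD627 libraries of Tomato-negative cells Aldh1a2 had the largest share (53.0 and 48.5%), and in every Tomato-positive library Aldh1a3 did.

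**Figure D1:**
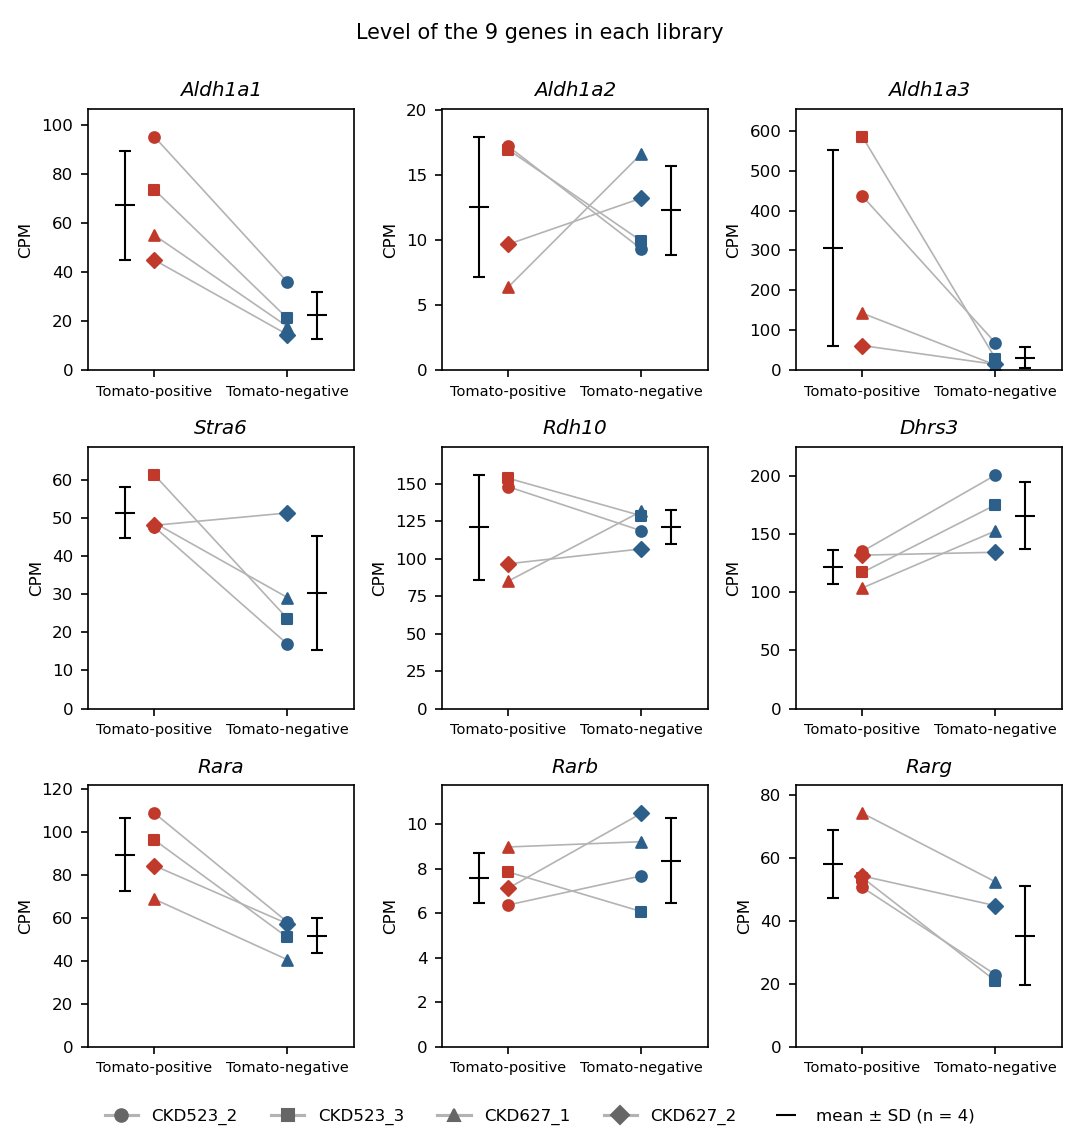
Level (CPM, linear axis from 0) of each gene in the 4 Tomato-positive (red, left) and 4 Tomato-negative (blue, right) libraries, with grey lines joining libraries of the same identifier and black bars for mean ± SD (n = 4). The lines of Aldh1a1, Aldh1a3, Rara and Rarg all run down to the Tomato-negative side, those of Dhrs3 all run up, and those of Aldh1a2 and Rdh10 cross.

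Of the genes that supply the dehydrogenases, Stra6 was higher in 3 of 4 pairs. Its protein takes up retinol from its plasma carrier, and the gene spans 58063788 to 58153996 on the plus strand of chromosome 9. It was at 47.6, 61.2, 48.7 and 48.0 CPM in Tomato-positive, against 16.9, 23.6, 29.1 and 51.3 CPM in Tomato-negative libraries. Of the positive libraries 3 sat close together with CKD523_3 above them, and the negative ones ran from well below them up to their level, so that the CKD627_2 pair showed no rise. The paired estimate was 1.79-fold, with bounds of 1.21 and 2.63.

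Rdh10, which starts the pathway by oxidising retinol (chromosome 1, 16105774 to 16133734, plus strand), was at 148, 154, 85.2 and 96.6 CPM in Tomato-positive libraries. In Tomato-negative libraries it was at 119, 129, 132 and 107 CPM. As with Aldh1a2, both CKD523 pairs were higher and both CKD627 pairs lower in positive cells. The paired estimate was 0.942-fold, with bounds of 0.719 and 1.24.

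Dhrs3, which turns retinaldehyde back into retinol (chromosome 4, 144892827 to 144928209, plus strand), was lower in Tomato-positive cells in all 4 pairs. It was at 135, 117, 104 and 132 CPM in Tomato-positive, against 201, 175, 153 and 134 CPM in Tomato-negative libraries. In 3 pairs the ratio lay between 0.668 and 0.679, and in CKD627_2 it was 0.981. The groups overlapped by the highest positive and the lowest negative library. The paired estimate was 0.720-fold, with bounds of 0.567 and 0.915.

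Among the receptors, Rara (chromosome 11, 98927818 to 98974942, plus strand), the form found in most tissues, was at 109, 96.1, 68.6 and 84.2 CPM in Tomato-positive libraries. In Tomato-negative libraries it was at 58.0, 50.9, 40.5 and 57.2 CPM. The groups did not overlap, and the ratios ran from 1.47 to 1.89. The paired fit gave 1.68-fold, with bounds of 1.37 and 2.06.

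Rarg, the receptor best known from skin and cartilage (chromosome 15, 102234938 to 102257517, minus strand), was at 50.6, 53.7, 74.2 and 54.3 CPM in Tomato-positive, against 22.9, 20.9, 52.4 and 44.8 CPM in Tomato-negative libraries. All 4 pairs were higher in positive cells, with ratios of 1.42 and 1.21 in the CKD627 pairs and 2.21 and 2.57 in the CKD523 pairs. The paired fit gave 1.71-fold, with bounds of 1.27 and 2.31.

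Rarb, the receptor that retinoic acid itself induces through the element printed above (chromosome 14, 16430839 to 16819156, minus strand), was the least abundant member. It was at 6.38, 7.86, 8.99 and 7.14 CPM in Tomato-positive, against 7.69, 6.08, 9.22 and 10.5 CPM in Tomato-negative libraries. The groups overlapped throughout, and 1 of 4 pairs was higher in positive cells. The paired estimate was 0.893-fold, with bounds of 0.594 and 1.34. Of its exon bases, 34.1% are also exons of Top2b on the opposite strand, which averaged 120 CPM in Tomato-positive and 108 CPM in Tomato-negative cells. The sources used here do not say whether counting used strand, so the Rarb values are uncertain. No other member shared exon bases with another annotated gene.

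Per length, the 3 receptors together came to between 33.4 and 38.0 CPM per kb in Tomato-positive and between 17.7 and 25.6 CPM per kb in Tomato-negative libraries. Rara and Rarg made up nearly all of it. The Rarb share was 3.19 to 4.90% in positive and 6.52 to 7.79% in negative libraries. On the same scale the order of means in Tomato-positive cells was Aldh1a3 (66.3 ± 53.1), Dhrs3 (41.7 ± 4.95), Rdh10 (29.1 ± 8.41), Rara (20.5 ± 3.91), Rarg (13.7 ± 2.53), Aldh1a1 (13.6 ± 4.49), Stra6 (8.81 ± 1.13), Aldh1a2 (5.56 ± 2.38) and Rarb (1.44 ± 0.21) CPM per kb (SD, n = 4). In Tomato-negative cells it was Dhrs3 (56.7 ± 9.80), Rdh10 (29.2 ± 2.72), Rara (11.8 ± 1.85), Rarg (8.28 ± 3.69), Aldh1a3 (6.86 ± 5.57), Aldh1a2 (5.43 ± 1.50), Stra6 (5.18 ± 2.56), Aldh1a1 (4.54 ± 1.92) and Rarb (1.59 ± 0.36) CPM per kb (SD, n = 4). The first place of Aldh1a3 in Tomato-positive cells came from the CKD523 libraries. In CKD627_1 it was at 31.0 and Dhrs3 at 35.5 CPM per kb. In CKD627_2 it was at 13.5 CPM per kb, below Dhrs3 (45.1), Rdh10 (23.2) and Rara (19.3). Neighbours in the Tomato-positive order overlapped in mean ± SD, except Rara with Rarg and Aldh1a2 with Rarb. Neighbours in the Tomato-negative order did so too, except Dhrs3 with Rdh10, Rdh10 with Rara and Aldh1a1 with Rarb.

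**Figure D2:**
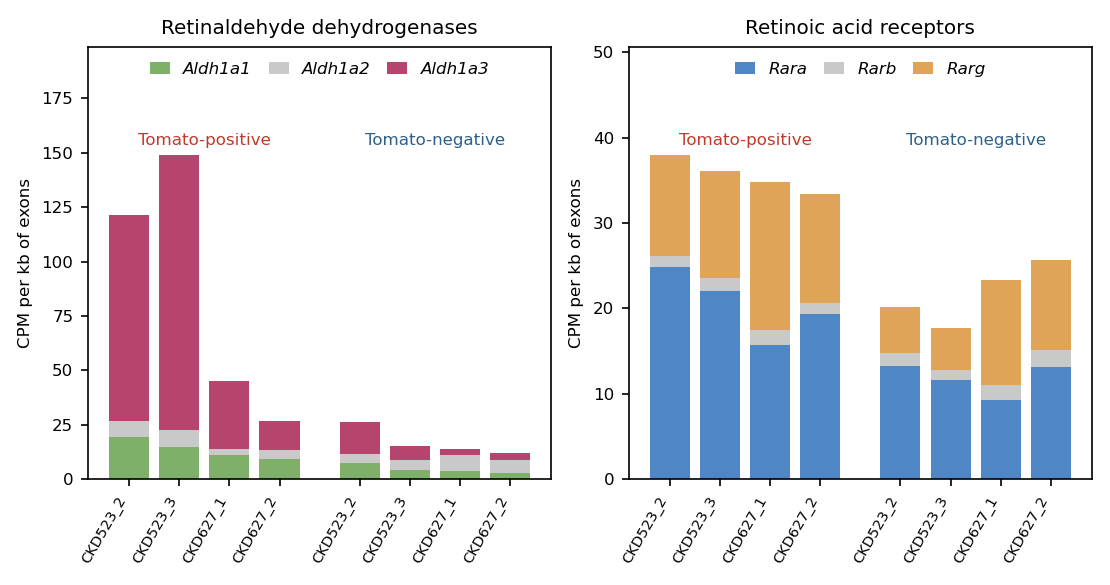
Level per length of exon (CPM per kb, stacked bars from 0) of the 3 retinaldehyde dehydrogenases (left) and the 3 retinoic acid receptors (right) in each library, Tomato-positive before Tomato-negative. Aldh1a3 is the largest part of every Tomato-positive bar on the left, from 50.1 to 84.9%, and the receptor bars reach 33.4 to 38.0 in Tomato-positive and 17.7 to 25.6 in Tomato-negative libraries.

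In the unpaired edgeR fit none of the 9 genes passed an adjusted p of 0.05 over all 14284 tested genes, in which 0.364% were called higher and 0.231% lower in Tomato-positive cells. DESeq2 called 3 of them, and 1008 of 13728 genes in all, and limma-voom called none of them. Before adjustment 6 had an edgeR p under 0.05, and the share of all genes that did was not counted. In the paired fit, 4 passed, all higher (Aldh1a1, Aldh1a3, Rara and Rarg), where 3.82% of all genes were called higher and 3.81% lower. Because the genes were picked with this contrast known, nothing is read from these counts. Only Aldh1a1 and Rara had every positive library above every negative one, as did 7.13% of tested genes, and no member had the reverse, as did 5.69%. The median log2 difference of the 9 genes in the paired fit was 0.75, against 0.01 over all genes. Nothing is read from this gap either, as the genes were picked with the contrast known.

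With a pair left out, the paired fit no longer called Rara or Rarg without CKD523_2, CKD523_3 or CKD627_2, and it called Stra6 without CKD627_2. These calls rest on the values that chose the genes and are no support for them. Each prefix was also fitted alone, without the identifier as a block. The log2 difference of Aldh1a3 was 2.81 in CKD627 and 3.32 in CKD523, and that of Aldh1a1 was 1.59 in CKD627 and 1.50 in CKD523. Rara stood at 0.62 in CKD627 and 0.84 in CKD523, Rarg at 0.36 in CKD627 and 1.18 in CKD523, and Stra6 at 0.24 in CKD627 and 1.35 in CKD523. The estimates of these 5 genes were above 0 in both prefixes, but the CKD627 pairs of Stra6 differed, with ratios of 1.67 and 0.937. Dhrs3 stood at -0.32 in CKD627 and -0.65 in CKD523, and Rarb at -0.33 in CKD627 and -0.02 in CKD523. The signs differed for Aldh1a2 (-0.92 in CKD627, 0.75 in CKD523) and Rdh10 (-0.43 in CKD627, 0.21 in CKD523).

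**Figure D3:**
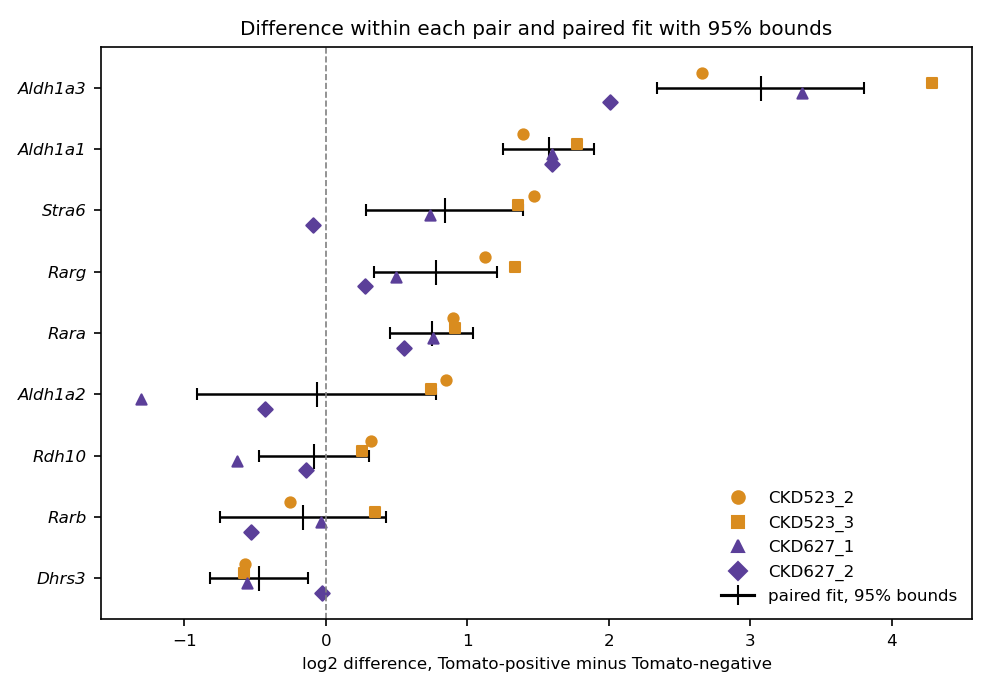
Log2 difference (Tomato-positive minus Tomato-negative) of each gene within each of the 4 pairs, from log2(CPM + 0.5), in purple for prefix CKD627 and orange for CKD523, with the estimate of the paired fit and its 95% bounds in black. Aldh1a1 lies between 1.39 and 1.77 in every pair, Aldh1a3 spreads from 2.01 to 4.29, and the purple points of Aldh1a2 and Rdh10 fall left of 0 while the orange ones fall right of it.

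Cell type markers moved with the same contrast. All 11 principal cell markers rose in the paired fit (2 of 11 unpaired), and their summed level was 2270 to 6675 CPM in Tomato-positive and 702 to 3336 CPM in Tomato-negative libraries. Of 14 proximal tubule markers 6 fell and none rose, with sums of 4024 to 10465 CPM in Tomato-positive and 6345 to 23793 CPM in Tomato-negative libraries. Of 8 distal convoluted and connecting tubule markers 4 fell, with sums of 428 to 1217 CPM in Tomato-positive and 1365 to 3182 CPM in Tomato-negative libraries. Of 9 loop of Henle markers 6 fell, with sums of 1921 to 7479 CPM in Tomato-positive and 4039 to 15209 CPM in Tomato-negative libraries, and of 8 intercalated cell markers 4 fell, with sums of 289 to 1226 CPM in Tomato-positive and 294 to 2777 CPM in Tomato-negative libraries. Not every marker of these lists was lower. In Tomato-positive cells Slc5a2 of the proximal list and Slc4a1 and Aqp6 of the intercalated list were higher in all 4 pairs without passing (paired log2 0.70, 0.45 and 0.38).

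The proximal sums rest in part on Kap, which was at 316 to 827 CPM in Tomato-positive and 2960 to 7420 CPM in Tomato-negative libraries. Without it, an alternative chosen after its values were seen, the sums of the other 13 markers were 3708 and 5168 CPM in Tomato-positive and 3205 and 4616 CPM in Tomato-negative CKD627 libraries. Both CKD627 pairs were then higher in Tomato-positive cells. In the CKD523 pairs, which stayed lower, the sums were 9591 and 9637 CPM in Tomato-positive and 15607 and 16373 CPM in Tomato-negative libraries.

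Markers of cells outside the tubule, and of injury, were read as well. Of 8 macrophage markers 6 were tested and 2, Cd68 and Cd74, rose, with sums of 218 to 481 CPM in Tomato-positive and 170 to 368 CPM in Tomato-negative libraries. Most of these sums was Cd74, which averaged 325 CPM in Tomato-positive and 221 CPM in Tomato-negative cells (paired edgeR adjusted p = 0.0499). The list went both ways. Csf1r was lower in all 4 pairs without passing (paired log2 -1.52 ± 0.42 SE), and Lyz2 was higher in 1 of 4 pairs. Of 8 podocyte and parietal markers 2 rose and 1 fell, with sums of 212 to 613 CPM in Tomato-positive and 253 to 731 CPM in Tomato-negative libraries. In the paired fit no marker of endothelium, fibroblasts or urothelium passed. Before adjustment, edgeR p-values in the unpaired fit were under 0.05 for 0, 2 and 1 of them, a share not counted over all genes. Of 6 mesothelium markers 4 were tested and 1, Msln, rose (paired log2 2.89 ± 0.47 SE, edgeR adjusted p = 0.0103), with sums of 281 to 333 CPM in Tomato-positive and 91.6 to 298 CPM in Tomato-negative libraries. These sums mostly follow Krt19 of that list, which averaged 229 CPM in Tomato-positive and 128 CPM in Tomato-negative cells. Msln averaged 16.6 CPM in Tomato-positive and 2.67 CPM in Tomato-negative cells. Krt19 (1.14 ± 0.30 SE) and Upk3b (0.34 ± 0.25 SE) did not pass, and Lrrn4 was at 0 in every Tomato-positive library. Markers at 0 throughout a group were otherwise Slc22a7 of the proximal list, in Tomato-positive cells. Of 8 markers of the injured tubule 3 rose (Vcam1, Sox9 and Sox4), with sums of 17452 to 23277 CPM in Tomato-positive and 16042 to 34304 CPM in Tomato-negative libraries. Most of these sums was Spp1, which did not pass and was higher in 1 of 4 pairs. Spp1 averaged 13451 CPM in Tomato-positive and 16998 CPM in Tomato-negative cells. The part of these markers' cells in the differences of the 9 genes was not tested.

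The prefixes CKD627 and CKD523 of the titles, whose meaning the labels do not give, offered a second comparison across the same libraries. The rule that picked the genes also names the prefixes, and whether levels by prefix played a part in the choice is not known. The p-values of this comparison carry that limit. Aldh1a3 was 4.62-fold lower in CKD627 libraries (log2 -2.21 ± 0.30 SE, edgeR adjusted p = 0.000552). It was at 143 and 62.2 CPM in CKD627 and 436 and 584 CPM in CKD523 libraries of Tomato-positive cells, and at 13.4 and 15.1 CPM in CKD627 and 68.7 and 29.5 CPM in CKD523 libraries of Tomato-negative cells. In each group both CKD627 libraries were below both CKD523 ones. Aldh1a1 was 1.91-fold lower (-0.93 ± 0.18 SE, adjusted p = 0.0038) and Rdh10 1.45-fold lower (-0.54 ± 0.15 SE, adjusted p = 0.0277). The Rdh10 difference lay in Tomato-positive cells, at 85.2 and 96.6 CPM in CKD627 and 148 and 154 CPM in CKD523 libraries. In Tomato-negative cells its prefixes overlapped, at 132 and 107 CPM in CKD627 and 119 and 129 CPM in CKD523 libraries. Rarg was 1.48-fold higher (0.57 ± 0.18 SE, adjusted p = 0.0462), and more so in Tomato-negative cells. There it was at 52.4 and 44.8 CPM in CKD627 and 22.9 and 20.9 CPM in CKD523 libraries. In Tomato-positive cells it was at 74.2 and 54.3 CPM in CKD627 and 50.6 and 53.7 CPM in CKD523 libraries.

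So 3 of 9 genes were lower and 1 higher in CKD627, where 11.4% of all tested genes were lower and 9.66% higher. Without the Tomato group as a term the same edgeR fit called none of the 9, and 2 had a p under 0.05 before adjustment. The share of all genes with such a p was not counted. The 2 libraries of an identifier may come from 1 animal, and p-values over 8 libraries are then too small. A fit with those libraries summed, so that each prefix had 2 values, was added after the data were seen and reuses the same counts. In it Aldh1a3 (-2.43 ± 0.25 SE, edgeR adjusted p = 0.000105), Aldh1a1 (-0.92 ± 0.17 SE, adjusted p = 0.0031) and Rdh10 (-0.57 ± 0.13 SE, adjusted p = 0.00776) passed. Dhrs3 passed too (-0.45 ± 0.13 SE, adjusted p = 0.0323). Rarg did not (adjusted p = 0.0755). In that form 13.5% of all genes were lower and 9.75% higher. Of the 14 proximal tubule markers 11 were lower in CKD627, and of the 11 principal cell markers 8 were higher. Over the 8 libraries, only 2 members were called without the Tomato-positive CKD523_2, the Tomato-negative CKD523_3 or the Tomato-positive CKD627_1 library. Whether the difference of the dehydrogenases follows from this was not tested.

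The rest of the pathway was read from 5 lists with 61 genes, of which 47 were tested. In the unpaired edgeR fit none passed, while 11 had a p under 0.05 before adjustment, a share that was not counted over all genes. DESeq2 called 3 of them, and 1008 of 13728 genes in all, and limma-voom called none of them. In the paired fit 3 rose and 3 fell, where 3.82% of all tested genes were called higher and 3.81% lower. The median log2 difference over the 47 was -0.04. The list of carriers and uptake had 5 of 9 genes tested, of which 1 rose. This was Crabp2, which hands retinoic acid to its receptors in the nucleus. It was at 1.48, 9.78, 5.25 and 4.68 CPM in Tomato-positive, against 0.427, 0.702, 1.11 and 0.268 CPM in Tomato-negative libraries. It was thus low in both groups, and no libraries overlapped (paired log2 2.93 ± 0.58 SE, edgeR adjusted p = 0.021, 0.0709 unpaired). Its call was lost without CKD523_3 or CKD627_2. The abundant carriers Ttr (-0.53 ± 0.17 SE, paired adjusted p = 0.0921) and Stra6l, a relative of Stra6 that takes up retinol in other organs (-0.19 ± 0.17 SE, paired adjusted p = 0.513), did not pass.

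Of 23 further enzymes of retinol, retinaldehyde and retinyl esters, 19 were tested, 3 fell and none rose in the paired fit, with a median log2 difference of -0.62. Rdh16, a retinol dehydrogenase of liver and kidney, was at 46.2, 49.3, 21.2 and 26.8 CPM in Tomato-positive, against 137, 134, 28.1 and 42.0 CPM in Tomato-negative libraries (-1.07 ± 0.22 SE, paired edgeR adjusted p = 0.0251, 0.267 unpaired). Its pairs were all lower in positive cells, and its level was lower in both CKD627 than in both CKD523 libraries of each group. Dhrs4, a carbonyl reductase of peroxisomes that also acts on retinoids, fell as well (-0.69 ± 0.16 SE, paired adjusted p = 0.0394), as did Rdh14 (-0.75 ± 0.19 SE, paired adjusted p = 0.0432). The call of Rdh14 was lost without any 1 pair, that of Rdh16 without any pair but CKD627_1, and that of Dhrs4 without CKD523_2 or CKD523_3. Adh1, the abundant alcohol dehydrogenase, was at 456 ± 205 CPM in Tomato-positive and 297 ± 60.5 CPM in Tomato-negative cells (SD, n = 4 each) and did not pass (0.49 ± 0.30 SE, paired adjusted p = 0.345). Neither did Adh5 (-0.31 ± 0.13 SE, paired adjusted p = 0.18).

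Of the 3 hydroxylases that clear retinoic acid, Cyp26a1 and Cyp26b1 were tested and neither passed. Cyp26a1, whose promoter is printed above, was near 1 CPM in both groups: 0.965, 1.02, 1.25 and 0.302 CPM in Tomato-positive, against 0.498, 0.468, 1.48 and 1.14 CPM in Tomato-negative libraries. It was higher in positive cells in both CKD523 pairs and lower in both CKD627 pairs (paired log2 -0.04 ± 0.80 SE, adjusted p = 0.983). With 56 counts over each group, this depth leaves a wide error, and the 95% bounds of the log2 difference were -1.86 and 1.79. Cyp26b1 averaged 4.22 ± 3.36 CPM in Tomato-positive and 6.97 ± 2.35 CPM in Tomato-negative cells (SD, n = 4 each; -1.09 ± 0.49 SE, paired adjusted p = 0.204).

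Among 12 partners and cofactors of the receptors, 11 were tested and 1 rose. Nrip1, a corepressor that binds loaded receptors and is induced by retinoic acid, was at 140, 142, 134 and 123 CPM in Tomato-positive, against 82.0, 60.8, 48.6 and 73.3 CPM in Tomato-negative libraries. The groups were far apart relative to their spread (1.01 ± 0.16 SE, paired edgeR adjusted p = 0.00914, 0.0603 unpaired), and the call was lost without CKD523_3 (adjusted p = 0.0612). The general corepressor Ncor1 did not pass (0.32 ± 0.26 SE, paired adjusted p = 0.474). Of 14 genes that retinoic acid induces in other cells, 10 were tested and 1 rose, the zinc finger gene Zfp703 (0.81 ± 0.20 SE, paired edgeR adjusted p = 0.0424, 0.205 unpaired). It was at 141, 123, 63.6 and 53.8 CPM in Tomato-positive and 52.0, 55.8, 40.5 and 48.0 CPM in Tomato-negative libraries, and its call was lost without CKD523_2 or CKD523_3. The abundant Btg2 (0.43 ± 0.12 SE, paired adjusted p = 0.073) and Tgm2 (0.31 ± 0.13 SE, paired adjusted p = 0.19) were higher in all 4 pairs without passing. The 14 genes that were not tested had between 0 and 92 counts over all libraries.

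**Figure D4:**
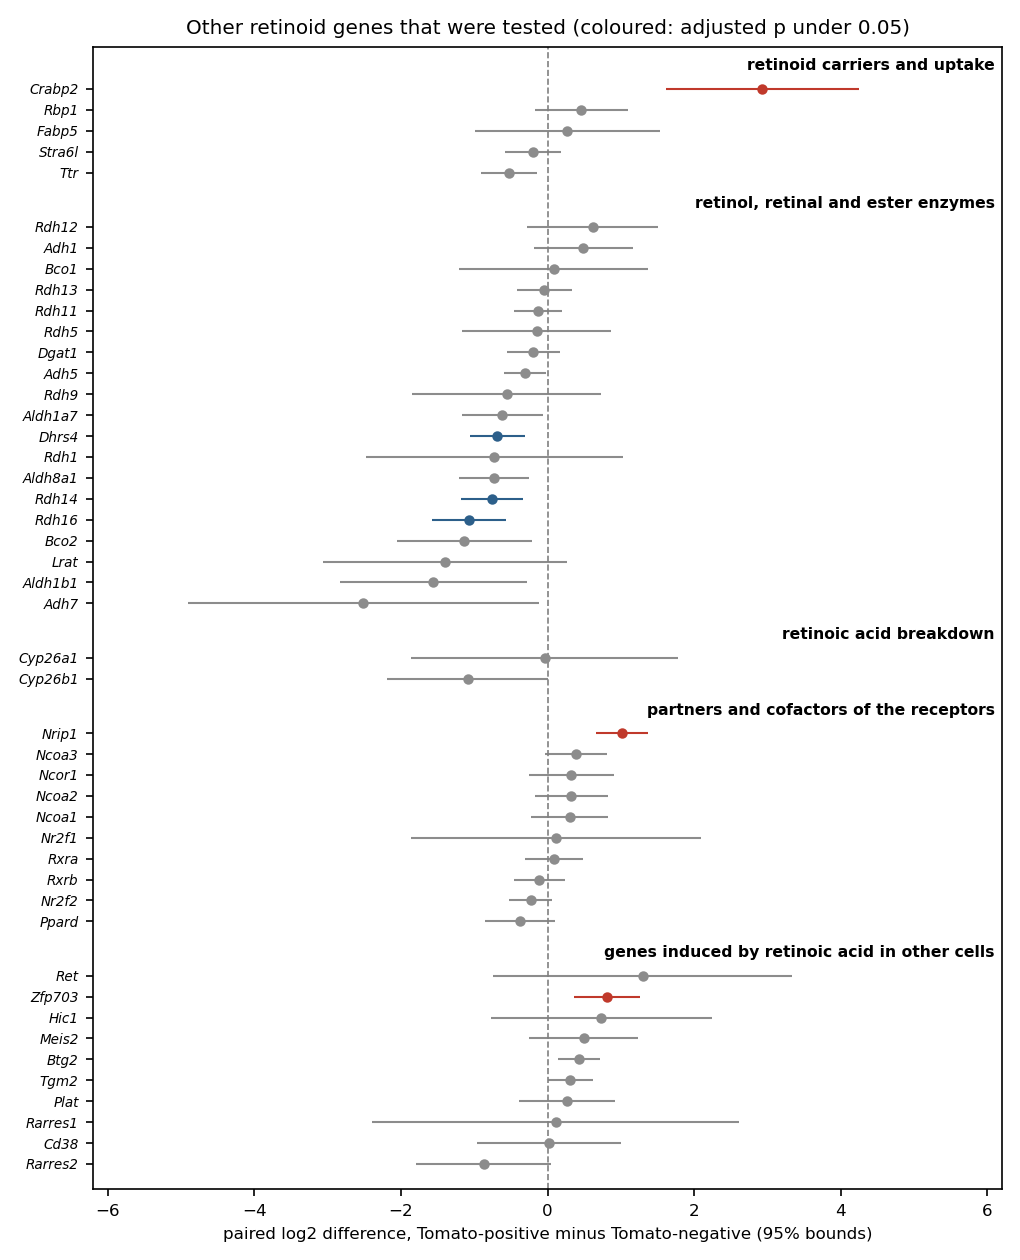
Paired log2 difference (Tomato-positive minus Tomato-negative) with 95% bounds for all but 1 of the 47 tested genes of the 5 other retinoid lists, red where the gene rose, blue where it fell and grey where its adjusted p was not under 0.05. Crabp2, Nrip1 and Zfp703 are red, Dhrs4, Rdh14 and Rdh16 are blue, and Cyp26a1 has wide bounds around 0.

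The genes whose level followed a member most closely over the 8 libraries were taken from 11320 genes with a mean of at least 5 CPM. For Aldh1a3 they were Fam110c (Pearson r of log2 CPM 0.983), the histone demethylase gene Kdm3a (0.980) and Ppl, which encodes periplakin of cell junctions (0.980). For Aldh1a1 they were Fnbp4 (0.985) and again Kdm3a (0.984) and Ppl (0.977). For Rarg they were Arfgap1 (0.986), Arap1 (0.985) and the cortactin gene Cttn (0.983), and for Stra6 they were Ptpn12 (0.957), Arf3 (0.957) and Desi1 (0.955). These are the highest of many correlations over libraries that share the Tomato and prefix differences.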

How the data were processed

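RNA of 8 libraries was counted by the authors. The deposited table holds raw counts per gene symbol. Reads were aligned with subread, per the file headers, and the build mm10, edgeR 3.32.1 and limma 3.46.0 are named in the submitters' processing notes. The counter, annotation, strand setting and handling of multiply mapped reads: not given in the sources used here. RNA was extracted with a kit for single cells and libraries were made with a NEBNext kit, per the labels' protocols.

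Genes passing filterByExpr (count of 10 in 4 libraries, 15 in all) were tested with edgeR 4.0.16 in R 4.3.3: TMM, quasi-likelihood, 2-sided, Benjamini-Hochberg over all 14284 tested genes, threshold 0.05. SE is the log2 difference over the root of F. The prefix fit had the Tomato group as a covariate. DESeq2 1.42.0 and limma 3.58.1 (voom) were alternatives. After removal of group means (log2(CPM + 0.5), all tested genes), libraries sharing an identifier had correlations of 0.516, 0.387, 0.361 and 0.509, each over 0.1, and paired values are therefore given; the pairing comes from the titles and this check. No label states separate animals, so p-values cover only the spread among these libraries, which may be technical. CPM used library totals. Lengths and positions came from GENCODE M21 (GRCm38, the same build), promoters from RefSeq. The edgeR fits were tested on simulated data.

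The 9 members and the gene lists were chosen with earlier results of these data known. Named genes were the members, the listed pathway genes past the threshold in either fit, the 2 of highest mean CPM per list, and the 3 closest in level to each of the 4 members with the largest paired difference. A gene that this rule names is not reported here. Aldh1a7, Top2b and the named markers were added after their values were seen.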

Additional observations from a re-analysis of the deposited data

Results flagged for a closer look

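Among the 4 Tomato-positive libraries, the highest Stra6 level (CKD523_3, 61.2 CPM) stood apart from the other 3, which lay within 47.6 to 48.7 CPM, with a gap of 0.919 of the range. The highest Rarg level in Tomato-positive cells (CKD627_1, 74.2 CPM, the others 50.6 to 54.3 CPM) did so with a gap of 0.845. Both exceed the 95% critical value of Dixon's test for 4 samples, and chance alone flags about 1 in 20 groups. These were 2 of 18 groups examined.

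The Tomato difference of Aldh1a2 and of Rdh10 had opposite directions in the prefixes, in both pairs of each. The difference in CKD627 minus that in CKD523 was -1.64 ± 0.43 (SE) on the log2 scale for Aldh1a2 and -0.61 ± 0.24 for Rdh10. In the edgeR test of this difference over all genes neither passed after adjustment, nor did any other of the 9 genes, 4 of which had a p under 0.05 before adjustment, as did 13.2% of all tested genes. With the replicate block none passed either.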

How the results depend on the processing

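Counts are given in the order all genes, the 9 members, the other retinoid genes. The unpaired edgeR fit gave 85, 0 and 0. The fit with the replicate block gave 1089, 4 and 6, the prefix as a covariate 1527, 4 and 7, prefix CKD627 alone 303, 2 and 1, and prefix CKD523 alone 2231, 6 and 13. The covariate fit and the fits of each prefix alone had no replicate block. DESeq2 gave 1008, 3 and 3, and 2026, 6 and 11 when paired; paired limma-voom gave 1389, 4 and 7. Unpaired with no filter 45 genes passed in all, and with library size alone 1 other retinoid gene did. Leaving out 1 library unpaired left 6 to 26 genes and no member. Paired without CKD523_2 the counts were 521, 2 and 2, without CKD523_3 203, 2 and 0, without CKD627_1 1319, 4 and 7, and without CKD627_2 384, 3 and 3. The causes were not tested. RLE and upper-quartile factors, the filter at 1 CPM and unpaired limma-voom kept every count within 1.5 times.

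Between prefixes the fit without a Tomato term called 1817 genes and 0 members, against 3014 and 4 with it; without any 1 library it called 2 to 4 members. The number of genes whose Tomato difference differed between prefixes was 2, and 20 with the replicate block, none of them a member. Over 25 alternatives the sign of Aldh1a1, Aldh1a3, Rara, Rarg, Stra6, Dhrs3 and Rarb did not change, while Aldh1a2 was positive in 12 and Rdh10 in 5. Rarb ran from -0.33 to -0.02 on the log2 scale. These alternatives refit the contrast that chose the genes, so a kept sign is no support for them. Depth limits the genes of low counts, such as Cyp26a1 with 56 counts in each group.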
